A study of Rattus norvegicus with 60 samples.

Results

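The 6 rat microRNAs (miRs) described here are rno-miR-207, rno-miR-328, rno-miR-331, rno-miR-333, rno-miR-346 and rno-miR-347, out of 350 rat miRs printed on the array. They were picked by name because, in earlier results from the same arrays, their signals did not move with the overall brightness of an array in the way the other miRs did. The relation to brightness is therefore how they were selected and not a finding, and it is given as a description. Brightness also differed between injured and control retinas, so the injury comparison was not independent of this choice.

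Retinas came from male Long Evan's hooded rats of 250 to 300 g. In the ischemia-reperfusion (IR) groups, the pressure in 1 eye was held at 110 mmHg for 60 min and blood flow was then allowed to return. Sham control rats went through the same surgery without the rise in pressure. Whole retinas were taken from both arms at 5 time points, directly (0 h) and 2 h after reperfusion began, and then at 24 h, at 48 h and after 7d, which gave 10 groups of 6 rats, 1 array per rat and 60 arrays in all. Each array took 100 ng of total RNA. Acute pressure-induced ischemia is a model of sudden loss of blood supply to the whole retina, and the comparison of interest was IR against sham control at the same time point.

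miRs are short RNAs that guide a silencing complex to messenger RNAs, mainly by pairing through bases 2 to 8 at their 5′ end, the seed. Several of the 6 were first cloned from rodent brain, and none is among the miRs best known for marking a retinal cell type. miR-328 is known for acting on the messenger of the protease BACE1 and for binding the RNA-binding protein hnRNP E2, and miR-331 for acting on the growth factor receptor ERBB2. By the RefSeq gene table for the GRCr8 assembly, the miR-207 gene lies inside the span of Dnaja1, a heat shock co-chaperone, the miR-328 gene inside Elmo3, the miR-331 gene inside Vezt, which encodes a junction protein, and the miR-346 gene inside Grid1, which encodes a glutamate receptor subunit of the delta class.

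RefSeq (GRCr8) held the mature sequence of 3 of the 6, and these are shown because 2 of them, miR-207 and miR-346, varied together across the arrays. The seed is in capitals, 5′ to 3′, and the array's rno-miR-331 is listed there as rno-miR-331-3p.
rno-miR-207: cUUCUCCUggcucuccucccuuu
rno-miR-331-3p: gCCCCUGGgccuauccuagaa
rno-miR-346: uGUCUGCCugagugccugccucu
The 3 seeds differ, and each belonged to 1 of the 693 mature rat miRs in that table, so none of them has a seed partner there. miR-207 and miR-346 are both rich in C and U. These bases made up 91.3% of miR-207, the highest share of any mature rat miR in the table, and 69.6% of miR-346, a share reached by 46 of the 693, against a median of 50% over all. In miR-331-3p the share was 57.1%. G and C together made up 56.5%, 60.9% and 61.9% of miR-207, miR-346 and miR-331-3p, against a median of 47.8% over all mature rat miRs.

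The array reads each miR with 2 or 4 probes that differ by single bases in how far they reach. In the rn4 build used by the scanner files, the probes of miR-207 covered chr5:58101243-58101258 and were 13 to 16 bases long. Those of miR-346 covered chr16:10553508-10553522 with 12 to 15 bases, those of miR-328 covered chr19:35122569-35122587 with 18 and 19 bases, and those of miR-331 covered chr7:31089779-31089797 with 18 and 19 bases. Those of miR-333 covered chr18:27042250-27042269 with 17 to 20 bases, and the 2 probes of miR-347 carried no position. Among the 154 tested miRs with a mapped probe, the longest probe had a median of 18.5 bases, and 40 of them had none longer than 16 bases, among them miR-207 and miR-346. The slope on array brightness explained below had a median of 1.05 (range -0.31 to 1.90) over those 40 miRs, and over the 154 its correlation with probe length was 0.00 (Pearson's r across miRs, which share arrays and are not independent).

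The overall signal differed strongly between arrays and between the arms. Array brightness is here the log2 of the 75th percentile of total signals, taken across those 57 miRs that every one of the 60 arrays detected. It ran from 7.27 to 11.15, a 14.7-fold range. At 24 h it was 8.38 (lowest 7.40, highest 8.83) on IR arrays and 10.61 (9.92 to 10.71) on sham control arrays, and at 7d it was 8.32 (7.27 to 8.54) against 10.74 (10.46 to 11.15), with the median given first. The arms did not overlap at these 2 time points, whereas at 2 h the medians were 9.90 and 9.89. The array's control spots with names starting in hur moved with brightness too, with a slope of 0.97 on the log2 scale. Their median was 4657 units on IR arrays at 24 h against 17411 units on sham control arrays. An array's number of detected miRs ranged from 59 to 232. The markers of the labelled tissue were present. The photoreceptor miRs miR-183, miR-182 and miR-96 and the neuronal miR-124 and miR-9 were detected on all 60 arrays, as were miR-204 and miR-211 of the pigment epithelium, while miR-184, on the same list, was detected on 33. Of the leukocyte and muscle markers, miR-142-3p and miR-133a were detected on no array, miR-223 on 16 and miR-1 on 11, while miR-206 was detected on 57.

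All 6 miRs passed the filter for testing, which 159 of the 350 passed, but they were not equally well measured. miR-328 and miR-331 were detected on all 60 arrays, miR-347 on 59, miR-207 and miR-346 on 55 each, and miR-333 on 40. The total signal of miR-328, in the scanner's units and before any scaling, had a median of 229.8 (92.6 to 374.5), that of miR-331 116.2 (33.3 to 239.5) and that of miR-207 98.2 (4.43 to 360.3). For miR-346 it was 92.8 (9.44 to 236.1), for miR-347 72.1 (13.9 to 140.3) and for miR-333 13.6 (-1.82 to 95.5). A total below 0 means that the background subtracted exceeded the signal read. miR-328 stayed within a 2.01 log2 range over the 60 arrays, whereas miR-207 spanned 6.34 log2 units.

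Unscaled signal was set against brightness by a least squares slope for each miR. A slope of 1 means that the signal moved in step with the array, and 0 that it did not move with it. Over the 159 tested miRs the median slope was 1.05 (quartiles 0.93 and 1.23), and over the 11 measured abundant retinal miRs of a list that holds miR-183, miR-124, let-7a and others it was 1.04, with a range of 0.88 to 1.14. Those of the 6 miRs had a median of 0.43. miR-207 had the lowest of all 159 at -0.31 (SE 0.16), and miR-346 stood at -0.16 (SE 0.12). miR-328 followed at 0.25 (SE 0.04). miR-347 had 0.61 (SE 0.05) and miR-331 0.62 (SE 0.03). miR-333, at 0.95 (SE 0.18), did not belong with the others by this measure: 43 tested miRs had a lower slope. After scaling, its correlation with brightness was -0.03, against -0.93 for miR-328, -0.87 for miR-331, -0.78 for miR-346 and -0.75 for both miR-207 and miR-347 (Pearson's r over 60 arrays, given as a description because the miRs were chosen for it). Spearman's rho was -0.93, -0.85, -0.81, -0.79 and -0.77 for miR-328, miR-331, miR-346, miR-207 and miR-347, and -0.12 for miR-333.

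**Figure D1:**
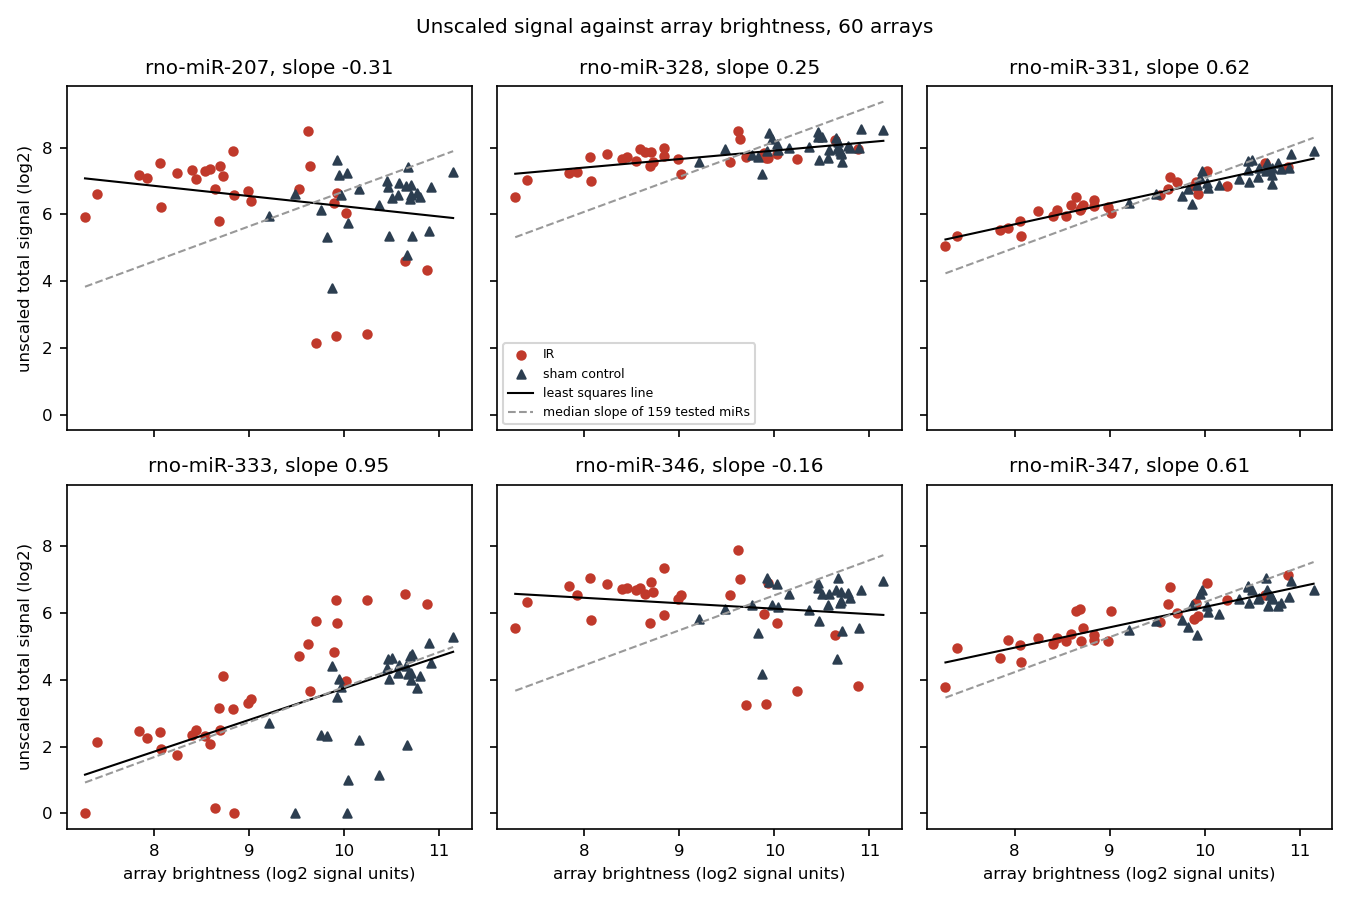
Unscaled total signal (log2, vertical) of each miR against array brightness (log2, horizontal) on 60 arrays, with IR arrays as red circles and sham control arrays as dark triangles. The black line is the miR's own least squares slope and the dashed grey line the median slope of the 159 tested miRs (1.05); miR-207 and miR-346 slope slightly downward, miR-328 rises by 0.25, and miR-333 follows the grey line with wide scatter.

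The relation was also described inside groups. From deviations around the 10 group means, the slope was -0.40 (SE 0.29) for miR-207, -0.28 (SE 0.22) for miR-346, 0.32 (SE 0.07) for miR-328, 0.64 (SE 0.05) for miR-331 and 0.69 (SE 0.08) for miR-347, against a median of 1.02 for the 159 tested miRs. The miR-333 slope was 1.94 (SE 0.27) within groups, steeper than that of any other tested miR, and 0.63 over all arrays when signals below the lowest dependable level were raised to that level. Its slope thus depended on how its dim values were handled. For miR-207 and miR-346 the arms differed. The slopes were -0.88 and -0.60 on the 30 IR arrays, and 0.30 for each on the 30 sham control arrays, a difference that was not tested. miR-328, miR-331 and miR-347 had much the same slope in each arm, at 0.28, 0.65 and 0.71 on IR arrays and 0.25, 0.72 and 0.64 on sham control arrays. Without the 2 arrays farthest from the median brightness, the correlation of scaled signal with brightness was -0.93 for miR-328, -0.86 for miR-331, -0.77 for miR-346, -0.75 for miR-347 and -0.74 for miR-207.

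miR-207 and miR-346 behaved almost as 1 measurement. Their unscaled signals correlated at r = 0.97 (rho = 0.95) over the 60 arrays, at 0.97 within groups, at 0.96 without the 2 arrays farthest from the median of miR-207, and at 0.96, 0.91 and 0.996 within the 3 scan sessions. All of these arrays share RNA, label and scan between both miRs, so the points are not free of common technical variation. Both had a set of very low arrays. miR-207 was under 30 units on 7 arrays, a level chosen after its values were seen, and miR-346 was under 30 units on 6 of the same 7 and on no other array. The lowest were IR replicate 5 at 2 h with 4.43 units of miR-207 and 9.44 of miR-346, IR replicate 6 at 2 h with 5.13 and 9.62, and IR replicate 5 at 48 h with 5.35 and 12.6. The other 4 were IR replicate 1 at 0 h with 20 and 14.1, sham control replicate 1 at 48 h with 14 and 18.1, IR replicate 3 at 2 h with 24.5 and 41, and sham control replicate 1 at 0 h with 27.8 and 24.7. The brightness of these 7 arrays ranged from 9.71 to 10.88, against a median of 9.92 over all 60 arrays. Their miR-328 signal was 147.4 to 298.8 units, within its range of 92.6 to 374.5 over all arrays. The 147.4 units were the lowest on any sham control array. They came from sham control replicate 1 at 48 h, the dimmest array of its group at 9.87. All 7 enter the slopes on brightness given above for miR-207 and miR-346. The 3 lowest were all hybridised on the same slide and read in the same scan session. That slide also held IR replicate 6 at 0 h, 24 h and 48 h and IR replicates 5 and 6 at 7d. On those arrays miR-207 read 108 to 184.6 units. Whether slide or scan played a part was not tested.

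A second pair was miR-331 and miR-347, with r = 0.90 (rho = 0.88) over the 60 arrays and 0.81 within groups. It shared little with the first pair: miR-331 correlated with miR-207 at -0.16 and with miR-346 at -0.09. miR-328 lay between them, with r = 0.80 to miR-331, 0.70 to miR-347, 0.30 to miR-346 and 0.24 to miR-207. miR-333 correlated at -0.38 with miR-207 and 0.57 with miR-347. Once scaled, miR-328 correlated with miR-207 at 0.84 and with miR-331 at 0.94. Division by the same brightness enters every scaled value, and unscaled values carry brightness itself. Unscaled miR-331 and miR-347 correlated with brightness at 0.95 and 0.87, so their r of 0.90 includes what both share with it. For miR-207 and miR-346 the correlations with brightness were -0.24 and -0.17.

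**Figure D2:**
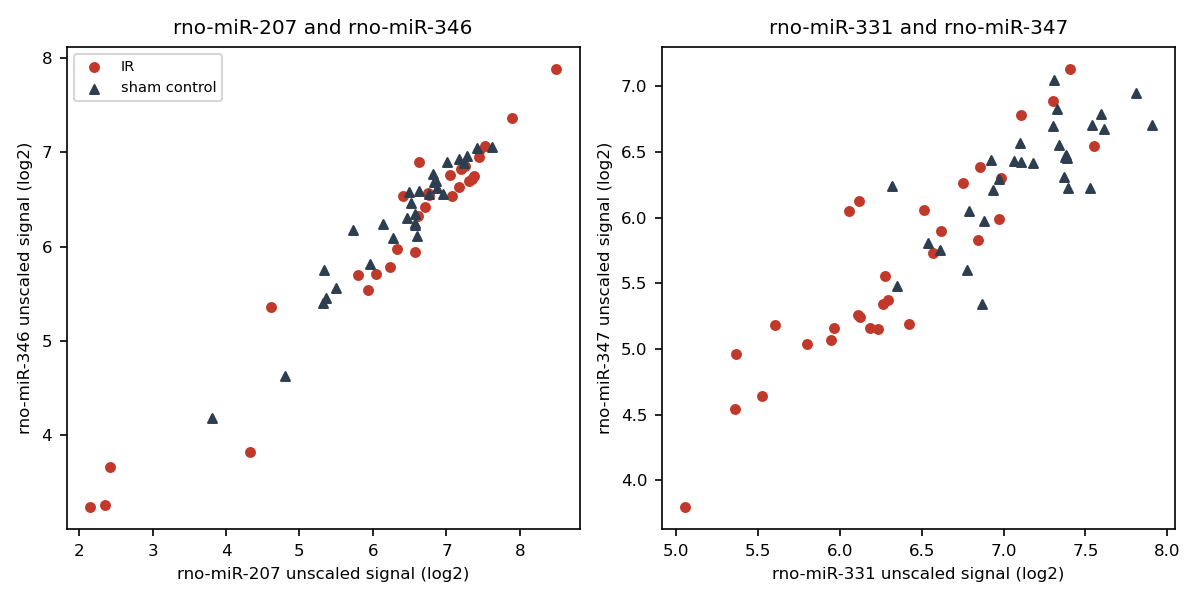
Unscaled signals (log2) of miR-346 against miR-207 (left) and of miR-347 against miR-331 (right), 1 point per array, IR as red circles and sham control as dark triangles. The left panel falls on a single line from 2.15 to 8.49 on the miR-207 axis with a gap below the main cloud (r = 0.97), and the right panel is a broader band (r = 0.90) whose lower end holds IR arrays.

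The 5 other tested miRs whose scaled pattern was most like the mean of the 6 were let-7d*, miR-291a-3p, miR-493, miR-378* and miR-598-3p, with r = 0.97, 0.95, 0.93, 0.92 and 0.81 over the 60 arrays, against a median of -0.16 over the other 153 tested miRs. The same 5 led when group means were removed, with r = 0.95, 0.91, 0.90, 0.79 and 0.65. Their slopes on brightness were -0.23, -0.30, -0.19, 0.31 and 0.71, so 3 of them fell below 0 together with miR-207 and miR-346, and these were the only 5 of 159 to do so. let-7d*, the passenger strand of a let-7 precursor, was the next most like miR-207 after miR-346, with an unscaled r of 0.94 to miR-207 and 0.95 to miR-346, although it was detected on only 40 arrays. For miR-291a-3p, miR-493, miR-378* and miR-598-3p the unscaled r to miR-207 was 0.59, 0.43, 0.29 and 0.01. To miR-346 it was 0.61, 0.48, 0.36 and 0.09. The median unscaled r to miR-207 over all tested miRs was -0.23. The higher scaled values above share the division by brightness.

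The probes of a miR were compared next. The 4 probes of miR-207 had median signals of 63.6, 71.2, 82.1 and 93.0 units from the shortest to the longest, and slopes on brightness of -0.35, -0.33, -0.30 and -0.26. Those of miR-346 were flat across length at 71.0, 69.1, 65.2 and 74.9 units, with slopes of -0.16, -0.17, -0.17 and -0.13. Each of these 8 probes thus had a slope below 0. Each also correlated with its miR's total at 0.99 (Pearson's r over 60 arrays). That total is made from the same overlapping probes, so a high correlation was fixed beforehand. The 2 probes of miR-328 stood at 75.1 and 269.1 units with slopes of 0.14 and 0.31, and those of miR-331 at 35.4 and 141.9 units with slopes of 0.82 and 0.60. For miR-347 they read 28.5 and 77.1 units, with slopes of 0.71 and 0.61. miR-333 was different: its 3 shorter probes had medians of -2.24, 1.01 and 6.35 units and its longest 36.7 units. Its total rested mostly on that 1 probe.

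**Figure D3:**
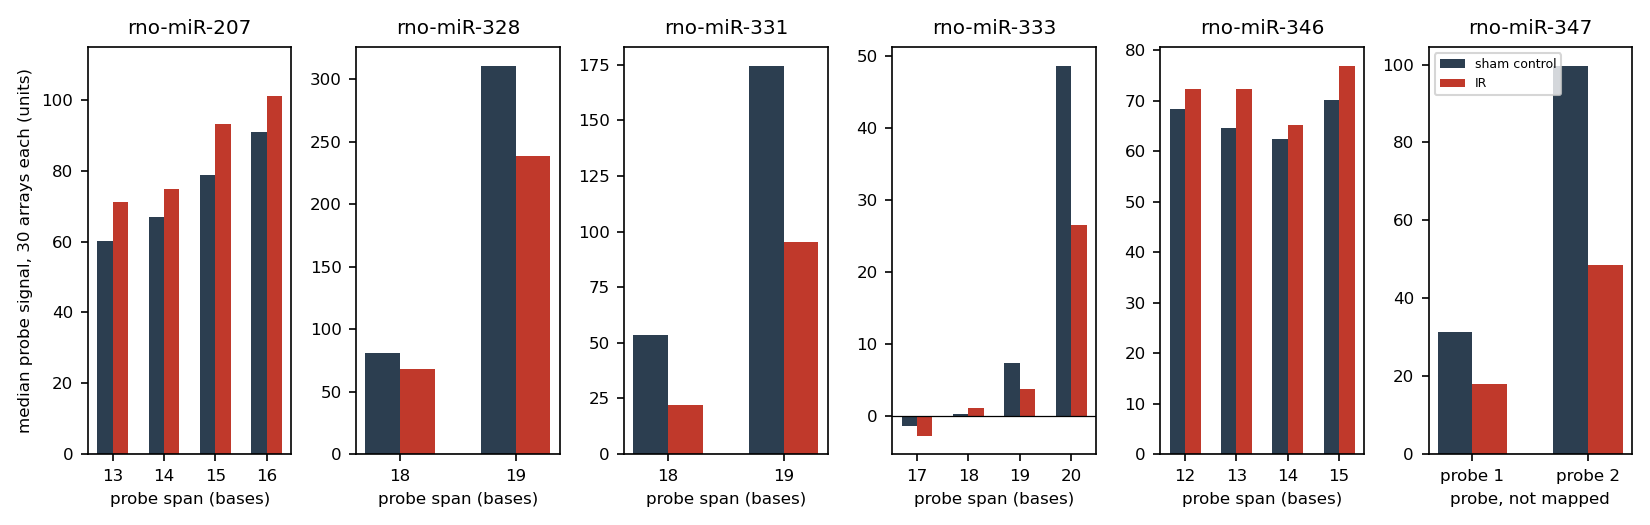
Median processed signal (scanner units, axis from 0 except for miR-333 where medians fall below 0) of each probe over the 30 sham control arrays (dark bars) and the 30 IR arrays (red bars), probes ordered by the span of their coordinates in bases. All probes of miR-207 and miR-346 read slightly higher on IR arrays, those of miR-328, miR-331 and miR-347 read lower, and miR-333 reads above 10 units on its 20-base probe alone.

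The injury comparison depended on whether signals were scaled by brightness. Scaling divides each array by its 75th percentile, and scaled signals below 7.36 units, about the lowest level at which a miR was still detected, were raised to that floor. Differences below are IR minus sham control on a log2 scale from limma, a linear model with a shared estimate of spread, fitted to all 60 arrays and 159 miRs. To be called changed, a miR had to differ 2-fold or more, with p no higher than 0.05 after Benjamini-Hochberg adjustment over all 159. Since arrays of both arms were in view when the 6 were chosen, their calls are read only against the share of all 159 miRs called. In a whole retina, fewer cells of a type and less RNA per cell cannot be told apart.

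At 24 h the scaled signals of all 6 miRs were called higher in IR, in a comparison where 18.2% of the 159 tested miRs were called and 11.9% were called higher. miR-207 had the largest difference, 2.64 (SE 0.72, adjusted p = 0.0018), or 6.25-fold. miR-346 differed by 2.37 (SE 0.63), or 5.16-fold, and miR-328 by 1.76 (SE 0.27), or 3.4-fold. The other 3 lay just past the 2-fold limit: miR-347 at 1.11 (SE 0.20), miR-333 at 1.03 (SE 0.39, adjusted p = 0.024) and miR-331 at 1.00 (SE 0.16). IR and sham control values did not overlap for any of the 6, which held for 17% of the tested miRs in that direction. Scaled log2 values of miR-207 ran from 8.36 to 9.39 (median 9.02) in IR and from 5.61 to 7.62 (median 6.02) in sham control. Without IR replicate 3 only miR-207, miR-346 and miR-328 were called, and miR-347, miR-333 and miR-331 stood at 0.98, 0.98 and 0.94. miR-331 also missed the 2-fold limit without IR replicate 4 or 6 or sham control replicate 4 or 5, and miR-333 without IR replicate 5 or sham control replicate 3 or 4. The same 3 miRs stayed called with quantile normalization and with the percentile taken over all miRs, and quantile normalization put miR-333, which was detected on 3 of the 6 IR arrays at 24 h and 5 of the 6 sham control arrays, at -0.11.

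The unscaled signals at 24 h looked quite different. miR-207 had 97.6 to 236.8 units (median 159) on IR arrays and 53.2 to 197.5 (median 105.6) on sham control arrays. miR-346 had 80.2 to 164.1 (median 111.2) against 72.2 to 133.3 (median 92.6). These ranges overlapped widely, and the differences were 0.49 (adjusted p = 0.39) and 0.21 (adjusted p = 0.66), neither of them called. miR-328 had 130.9 to 253.2 units (median 201.3) on IR arrays and 207.6 to 309.5 (median 240.2) on sham control arrays, a difference of -0.39 (adjusted p = 0.12). miR-331 read 41.3 to 77.4 units against 110.7 to 167.9, with no overlap, and miR-347 31.2 to 47.1 against 40.5 to 132.6. They fell by 1.15 and 1.05 on the log2 scale, and both were called lower. The median over all 159 tested miRs was -2.03 (quartiles -2.37 and -1.42), so miR-331 and miR-347 fell less than most tested miRs. The difference in brightness was -2.15, and all 6, with miR-333 at -0.73, lay above the typical miR. Unscaled IR values lay wholly below sham control for 81.1% of the 159 and for 1 of the 6, miR-331.

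At 7d, 3 of the 6 were called after scaling, against 18.2% of all tested miRs called and 7.55% called higher. miR-207 differed by 2.56 (SE 0.72, adjusted p = 0.0021), miR-346 by 2.29 (SE 0.63, adjusted p = 0.0018) and miR-328 by 1.84 (SE 0.27). miR-347 at 0.94 (SE 0.20) and miR-331 at 0.81 (SE 0.16) missed the 2-fold limit with adjusted p of 9.2e-05 and 2.4e-05. miR-333 differed by 0.07 (95% interval -0.72 to 0.85), but it was called higher at 1.73 (adjusted p = 0.00016) with normexp background correction and at 1.23 (adjusted p = 0.0002) with means of log2 processed signals. The scaled values of 5 of the 6, all but miR-333, lay wholly above sham control, against 15.1% of the tested miRs. Before scaling, miR-207 had 60.9 to 162.2 units (median 142.1) on IR arrays and 91.4 to 155.9 (median 120.4) on sham control arrays, and miR-346 46.5 to 116.1 (median 104.1) against 87.9 to 124.6 (median 97.6). Their differences were -0.02 and -0.29. miR-331, miR-347 and miR-333 were called lower, by -1.77, -1.64 and -1.48, and miR-328 stood at -0.74 below the 2-fold limit. For these 4, as for 95.6% of all tested miRs, unscaled IR values lay wholly below sham control. Brightness itself differed by -2.58.

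At 2 h, when the arms were equally bright, the pattern of 24 h was not seen. 1 of the 6 was called, miR-333, against 5.03% of all tested miRs, all higher. miR-333 had a median of 41.7 units (-0.82 to 95.5) on IR arrays and 5.74 (0.19 to 16.2) on sham control arrays. It was detected on 5 of the 6 IR arrays and 2 of the 6 sham control arrays. 4 of the 6 IR values lay above all sham control values, and 1 IR and 3 sham control values were at the floor. The scaled difference was 1.68 (SE 0.39, adjusted p = 0.0026) and the unscaled one 1.85 (adjusted p = 0.011), and the size of both depended on the floor. The call was lost with normexp background correction (0.32, limma adjusted p = 0.999), with a floor of 1 unit (adjusted p = 0.10), with slide as a block (adjusted p = 0.066) and in a fit to the 2 h arrays alone (adjusted p = 0.12), and a floor at the highest detection limit left all its values at that floor. miR-207 read lower in IR at 45.2 units (4.43 to 95.5) against 86.3 (40.1 to 143.6), and miR-346 at 46.7 (9.44 to 62.7) against 68.7 (42.4 to 121.4). The scaled values of miR-207 were 2.83-fold lower (adjusted p = 0.36) and those of miR-346 2.33-fold lower (adjusted p = 0.40), and neither was called. They came with a wide spread, 0.58, -1.13 and -3.95 for miR-207 in the 3 scan sessions, where the third held the 2 lowest arrays. miR-328 (-0.18), miR-331 (0.11) and miR-347 (0.00) had 95% intervals of -0.71 to 0.35, -0.21 to 0.43 and -0.40 to 0.40.

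None of the 6 was called at 0 h, against 6.92% of all tested miRs and 6.29% called higher, although miR-347 (1.00, SE 0.20, adjusted p = 0.00023) and miR-328 (0.99, SE 0.27, adjusted p = 0.0060) were short of the 2-fold limit by less than 0.01, and 5 of the 6 had an unadjusted limma p below 0.05. The count changed with single arrays. Without IR replicate 1, whose brightness of 10.88 was the highest of the IR arrays, 4 were called, miR-207 at 2.33, miR-346 at 2.06, miR-328 at 1.31 and miR-347 at 1.13. Leaving out any other single array but IR replicate 4 gave 1 or 2 calls. The unscaled differences at 0 h were 0.49 for miR-207, 0.47 for miR-333, 0.19 for miR-346, -0.07 for both miR-328 and miR-347 and -0.48 for miR-331, while the median over all tested miRs was -0.99. At 48 h, 2 of the 6 were called, against 13.8% of the tested miRs and 10.1% called higher: miR-207 at 3.11-fold (SE 0.72 on the log2 scale, adjusted p = 0.050) and miR-346 at 2.83-fold (SE 0.63, adjusted p = 0.042). miR-333 (1.00), miR-328 (0.88) and miR-331 (0.38) had adjusted p of 0.032, 0.0047 and 0.043 below the 2-fold limit, and miR-347 stood at 0.34 (adjusted p = 0.15). The calls at 48 h were fragile. Both were lost when IR replicate 1, 2, 3, 4 or 6 or sham control replicate 1, 2, 3 or 4 was left out, with miR-207 between 1.14 and 1.74 and miR-346 between 1.08 and 1.55.

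**Figure D4:**
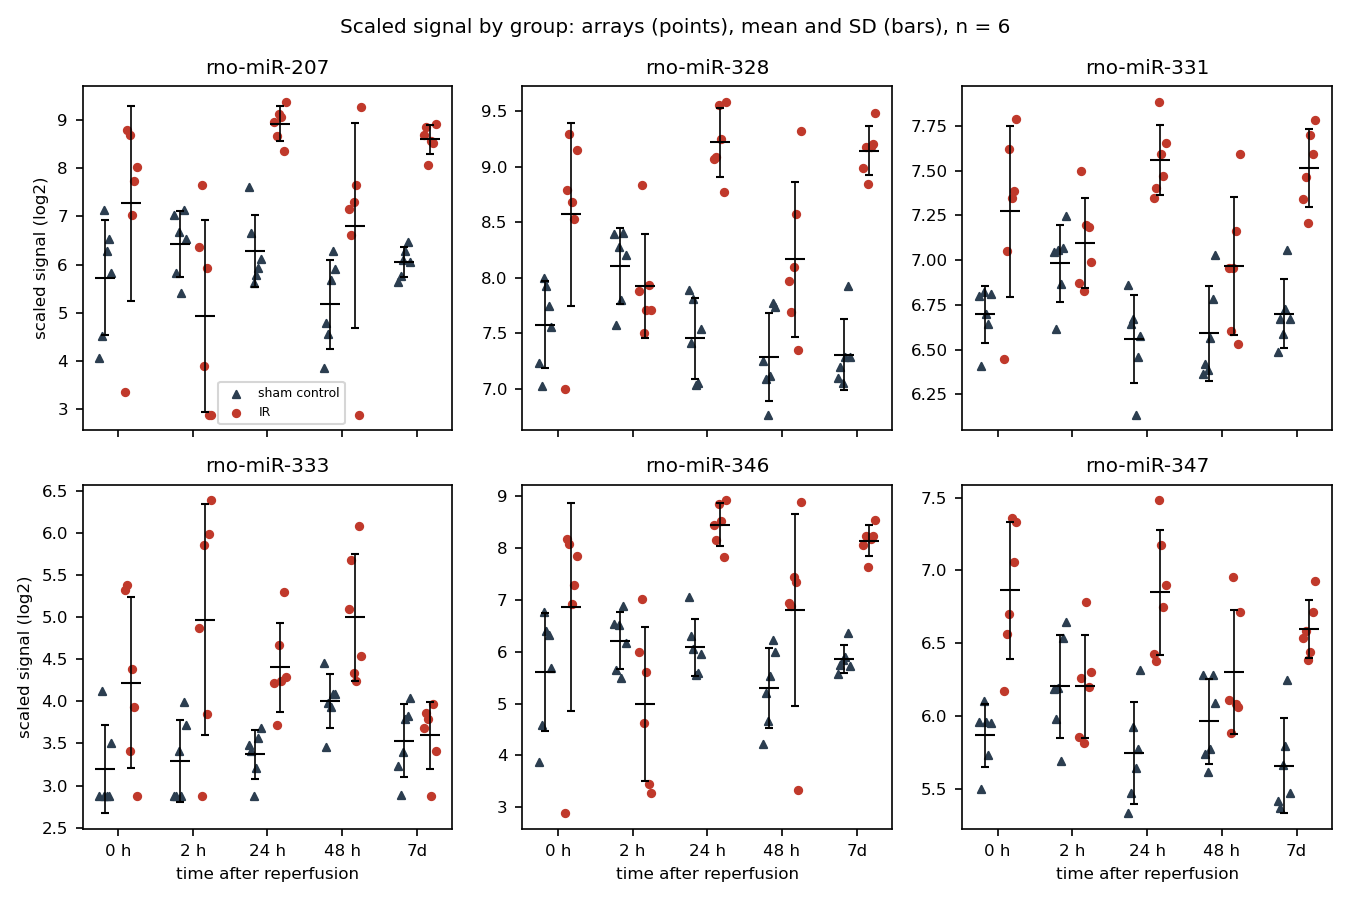
Scaled signal (log2) of each miR by time after reperfusion, 1 point per array, IR as red circles and sham control as dark triangles, with the mean and SD of the 6 arrays as black bars. At 24 h all 6 panels show IR above sham control without overlap, at 2 h the arms overlap in every panel, and miR-207 and miR-346 have single low IR arrays at 0 h and 48 h.

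The difference between time points was tested as an interaction in the same fit. From 2 h to 24 h the IR effect increased by 4.14 (SE 1.02, adjusted p = 0.0018) for miR-207, 3.58 (SE 0.89, adjusted p = 0.0020) for miR-346 and 1.95 (SE 0.38, adjusted p = 0.00015) for miR-328. It increased by 1.11 for miR-347 (adjusted p = 0.0025) and 0.89 for miR-331 (adjusted p = 0.0022). For miR-333 the change was -0.65 (adjusted p = 0.36). Of the 159 tested miRs, 23.9% passed this test. The brightness difference between the arms went from 0.04 to -2.15 over the same interval, and its part in these changes was not tested by this contrast. Between 24 h and 7d none of the 6 changed beyond error, with differences of -0.96 to 0.07 and adjusted p of 0.39 to 0.98 from limma, and 3.14% of the tested miRs did.

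When each array's brightness entered the scaled fit as a covariate, only miR-333 of the 6 was called, and it was called at all 5 time points. The share of all tested miRs called in this fit is not given here, so the call has no background beside it. The miR-333 differences were 1.72 at 0 h, 1.65 at 2 h, 2.43 at 24 h, 1.77 at 48 h and 1.75 at 7d, with limma adjusted p between 0.00013 and 0.016. However, miR-333 was detected on only 3 of the 6 IR arrays at 24 h and 2 of the 6 at 7d. Its unscaled differences there were -0.73 and -1.48. The covariate fit uses its slope on brightness, which depended on how its dim values were handled. The other 5 miRs were not called at 24 h, with limma adjusted p between 0.22 and 0.82. They stood at 0.44 (SE 0.24) for miR-347, 0.31 (SE 0.22) for miR-328 and 0.22 (SE 0.15) for miR-331. For miR-207 and miR-346 the values were -0.27 (SE 0.81) and -0.37 (SE 0.68), which leaves them poorly determined. At 7d miR-207 and miR-346 turned to -0.94 and -0.996 (adjusted p = 0.54 and 0.41). This fit takes for each miR 1 slope, pooled from the spread inside all 10 groups. As the arms did not overlap in brightness at 24 h and 7d, it carries that slope across the gap between them. Brightness and injury cannot be told apart there.

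**Figure D5:**
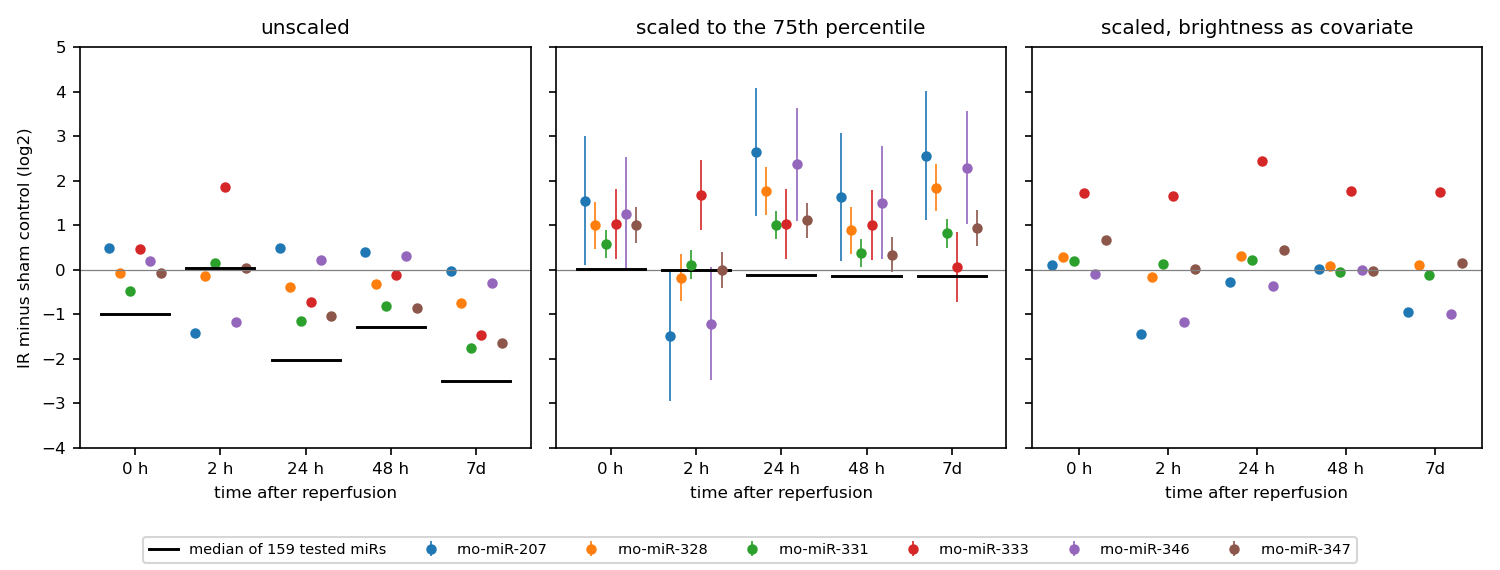
IR minus sham control (log2, vertical) of the 6 miRs at each time point for unscaled signals, scaled signals with 95% intervals, and scaled signals with brightness as a covariate, with black bars for the median of the 159 tested miRs in the first 2 panels. At 24 h and 7d the 6 miRs lie above the median in the first panel but at or below 0 apart from miR-207 and miR-346 at 24 h, all 6 lie above 0 in the second, and in the third only miR-333 stays above 1.

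Within each scan session at 24 h, the differences of the 6 scaled miRs ran from 0.52 to 3.26. Their sign was fixed beforehand, because IR and sham control values at 24 h did not overlap for any of the 6. The third session held only 1 IR and 1 sham control array of that time point. Slides could hardly be separated from injury. The 60 arrays lay on 9 slides, only 2 slides held both arms, and no slide held both arms of 1 time point. With slide as a block the 24 h difference was called for miR-328 alone. The differences of miR-207, miR-346 and miR-333 then stood at 2.52 (SE 1.37), 2.04 (SE 1.21) and 1.48 (SE 0.72), with SEs well above those of the fit without the block. At 7d the block likewise left miR-328 alone called, with miR-207 at 2.94 (limma adjusted p = 0.053) and miR-346 at 2.28 (limma adjusted p = 0.086). With slide as a random block, added after the data were seen, 4 of the 6 were called at 24 h. The shares of all tested miRs called in the fits with slide are not given here.

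Beside the 6, the lists of other miRs behaved as follows. Of the 12 abundant retinal miRs, 11 were tested, and none was called at any time point, with median scaled differences of -0.11 to 0.02 and unscaled medians of -2.16 at 24 h and -2.70 at 7d. Of 5 other rodent miRs with many related copies or narrow species range, 3 were tested, miR-291a-3p, miR-466b and miR-672. All 3 were called higher at every time point but 2 h, when 2 of them were. Their unscaled slopes on brightness were -0.30, 0.47 and 0.50, below the lower quartile of all tested miRs, and their median unscaled difference was -0.49 at 24 h and -1.45 at 7d.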

How the data were processed

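Total RNA from whole rat retina was labelled with Cy3 and hybridised to Agilent rat miRNA arrays, 1 array per rat. The deposited intensity values are total gene signals from Agilent Feature Extraction 9.5.3.1, background-subtracted and not normalized between arrays, on rn4 annotation, for 60 arrays in 10 groups of 6. A second deposited table, of log2 values for 219 miRs, served as an alternative and lacks miR-333. Per the authors' methods, those values were scaled on each array to the 75% quantile.

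Signals were divided by the array's 75th percentile across the 57 miRs that all arrays detected, raised to a floor of 7.36 units and put on a log2 scale. The 159 tested miRs were detected on every array of at least 1 group. Tests used limma 3.58.1 (R 4.3.3) with Benjamini-Hochberg adjustment. The limits were 2-fold and 0.05. Unscaled differences came from the same fit without scaling, with the same floor, and slopes from Python 3.11.15 with scipy 1.17.1 on unscaled signals raised to 1 unit.

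The 6 miRs, the lists and the tests were chosen with earlier results of these data known. The text names the 6, the 5 tested miRs most like their mean, and the members of 2 lists. Replicate numbers were not treated as pairs. Deviations of same-numbered arrays correlated with a median of 0.08 (-0.63 to 0.76), and 65.6% of these correlations were above 0. For arrays with different numbers the median was -0.01. Same-numbered arrays also shared scan sessions: all with number 1 were read in the first and all with number 6 in the third. The number of arrays limits the precision, and rats are the replicates.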

Additional observations from a re-analysis of the deposited data

Results flagged for a closer look

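In 6 of 60 sets of 6 arrays, 1 array's scaled log2 signal stood far from the other 5, where chance gives about 3. IR replicate 1 at 0 h was low for 3 miRs, miR-207 at 3.36 (the others 7.03 to 8.79), miR-328 at 7.00 (8.53 to 9.29) and miR-346 at 2.88 (6.93 to 8.18), and it was the brightest IR array. IR replicate 5 at 48 h was low for miR-346 at 3.34 (6.88 to 8.90). IR replicate 2 at 2 h was high for miR-328 at 8.83 (7.50 to 7.93), and it was the dimmest array of its group, with a brightness of 8.84. Sham control replicate 5 at 7d was high for miR-328 at 7.92 (7.05 to 7.28), also the dimmest of its group at 10.46.

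The IR effect differed between 2 h and 24 h by the interaction test in limma for 5 miRs, by 4.14 log2 units for miR-207, 3.58 for miR-346, 1.95 for miR-328, 1.11 for miR-347 and 0.89 for miR-331. Of all 159 tested miRs, 23.9% passed this test. Brightness differed between the arms at 24 h and hardly at 2 h, and its part in these differences was not tested.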

How the results depend on the processing

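Counts are of the 6 miRs called, for the 5 time points in order, and were 0, 1, 6, 2 and 3. The shares of all tested miRs called, given above, belong to this fit. The counts for other settings stand without such shares. They show only how far the calls of the 6 depended on the setting. With all miRs behind the 75th percentile they were 0, 1, 3, 0 and 3, with quantile normalization 0, 1, 3, 1 and 3, and without normalization 0, 1, 2, 0 and 3. With normexp background correction they were 4, 0, 5, 3 and 6, with means of log2 processed signals 1, 1, 5, 0 and 4, with a floor of 1 unit 0, 0, 5, 1 and 3, and with a floor at the highest detection limit (107.6 units) 1, 0, 3, 0 and 3. With miRs detected on at least 1 array they were 0, 1, 6, 1 and 3, and with miRs detected on all arrays, which keeps miR-328 and miR-331 alone, 0, 0, 2, 0 and 1. With brightness as covariate they were 1, 1, 1, 1 and 1, with slide as block 0, 0, 1, 0 and 1, with slide as a random block 1, 1, 4, 1 and 3, with the arrays of the time point alone 0, 0, 6, 0 and 3, and in the authors' table, which lacks miR-333, 0, 0, 3, 1 and 3. The replicate numbers were not treated as pairs in the main fit. With scan as block, and likewise with the replicate block, the counts were 0, 1, 6, 1 and 3, and the call of miR-207 at 48 h was lost. Leaving out 1 array gave 0 to 4, 1 to 1, 3 to 6, 0 to 3 and 3 to 4. The 0 h count became 4 without IR replicate 1 and 2 without sham control replicate 3 or 4, and was 1 without IR replicate 2, 3, 5 or 6 or sham control replicate 1, 2, 5 or 6. The 24 h count fell to 3 without IR replicate 3, and the 48 h count to 0 or 1 without IR replicate 1, 2, 3, 4 or 6 or sham control replicate 1 to 4. The cause was not tested.

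The median slope on brightness, 0.43, was 0.33 within the first scan session and lay between 0.38 and 0.49 under the other 11 settings.

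Differences with the sign turned were as follows, in log2 units. Without normalization miR-328 stood at -0.066, -0.39, -0.31 and -0.74 at 0 h, 24 h, 48 h and 7d, miR-331 at -0.48, -1.15, -0.82 and -1.77, miR-347 at -0.065, -1.05, -0.86 and -1.64 and at 0.035 at 2 h, miR-333 at -0.73, -0.13 and -1.48 at 24 h, 48 h and 7d, miR-207 at -0.025 and miR-346 at -0.29 at 7d. With brightness as covariate miR-207 stood at -0.27 and -0.94 at 24 h and 7d, miR-346 at -0.091, -0.37, -0.018 and -0.996 at 0 h, 24 h, 48 h and 7d, miR-331 at -0.056 and -0.12 at 48 h and 7d, and miR-347 at 0.011 at 2 h and -0.032 at 48 h. With quantile normalization miR-331 at 2 h stood at -0.040 and miR-333 at -0.11 at 24 h and -0.69 at 7d. With means of log2 processed signals miR-331 stood at -0.067 at 2 h and -0.10 at 48 h and miR-347 at -0.089 at 48 h. With the highest floor, miR-207, miR-346 and miR-347 stood at 0.040, 0.021 and 0.0054 at 2 h, and with normexp miR-347 at 0.0051. miR-333 at 7d stood at -0.17 with the percentile over all miRs and -0.41 with a floor of 1 unit, and between -0.063 and 0.21 with 1 array left out, below 0 without sham control replicate 2 or IR replicate 5. miR-347 at 2 h lay between -0.12 and 0.088 with 1 array left out, above 0 without IR replicate 1, 3 or 5 or sham control replicate 5 or 6. miR-333 was not above background on 20 of the 60 arrays, 4 of them sham control arrays at 2 h, which limits its differences.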
